A study of Mus musculus with 47 samples.

Results

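The genes described here are the mouse H2 genes, which form the major histocompatibility complex (MHC) of this species, together with Cd74, B2m and Ciita. Members were all non-control array probes whose gene name starts with H2-, plus the probes of those 3 genes. This gave 39 genes with 62 probes, of 27745 gene names on the array. By their names they were divided into 2 classical class I genes (H2-K1 and H2-D1, 6 probes), 22 non-classical class I genes (H2-Q, H2-T, H2-M and H2-Bl, 32 probes), 12 class II genes (H2-A, H2-E, H2-O and H2-DM with Cd74 and Ciita, 19 probes), B2m (3 probes), and the region genes H2-Ke2 and H2-Ke6, which lie among the others but encode no MHC chain (2 probes). The question asked of them was whether a difference between WT and Bcmo1-null mice is seen by all probes of a gene or by single probes, and whether it moves with the markers of immune cells.

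Inguinal white adipose tissue (iWAT) was taken from 47 mice, and 1 array was hybridized per mouse. The mice formed 8 groups by sex, genotype and diet, with 6 mice in each group except the WT males on the β-carotene (BC) diet, with 5. The Bcmo1-null mice carry the targeted allele Bcmo1tm1Dnp, which removes the enzyme that cleaves BC into retinal, on a C57/BL6;129Svj background. The WT mice were F1 animals of a mixed C57/BL6;129Svj background. From 5 to 19 weeks of age all mice ate a diet with 1500 IU vitamin A/kg, which for these 14 weeks held either no added BC (control) or 150 mg BC/kg. As the null and WT mice were not described as littermates, genotype and the strain share carried by each colony cannot be told apart, and this holds for the H2 region itself. Mice were housed in groups, and which mice shared a cage was not given, so cage effects were not tested.

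Class I molecules are a heavy chain bound to β2-microglobulin, the product of B2m, and present peptides from inside the cell to cytotoxic T cells on nearly every cell type. Class II molecules are pairs of an α and a β chain that present peptides taken up from outside, mainly on B cells, macrophages and dendritic cells. Their assembly needs the invariant chain Cd74, and Ciita is the master regulator of their transcription. Class I transcription is raised by interferons, and the non-classical genes of the Q, T and M regions are close relatives of H2-K1 and H2-D1 with less variable products. In adipose tissue, class II expression is known mainly from macrophages, and inguinal fat surrounds a lymph node that is rich in B and T cells.

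Shown here are 3 class I genes that were higher in null mice of both sexes and 2 class II genes. For each, the 250 bases before the start of transcription are given. They are from RefSeq on GRCm38.p6, written 5′ to 3′, and the capitals mark the interferon element core TTTCACTTC and the Y box core GATTGG or its reverse complement CCAATC. Both motifs were searched on both strands and do not overlap in these sequences.
H2-K1 chr17:34000348-34000597 (minus strand): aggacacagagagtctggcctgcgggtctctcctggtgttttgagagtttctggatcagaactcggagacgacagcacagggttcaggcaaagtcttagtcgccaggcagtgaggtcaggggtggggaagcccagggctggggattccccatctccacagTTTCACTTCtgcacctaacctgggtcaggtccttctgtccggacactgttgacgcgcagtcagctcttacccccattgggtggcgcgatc
H2-D1 chr17:35262844-35263093 (plus strand): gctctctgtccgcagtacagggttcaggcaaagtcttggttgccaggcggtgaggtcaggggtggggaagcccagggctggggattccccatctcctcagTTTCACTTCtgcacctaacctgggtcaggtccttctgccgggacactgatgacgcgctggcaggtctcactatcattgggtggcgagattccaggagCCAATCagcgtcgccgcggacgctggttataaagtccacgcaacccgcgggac
H2-Q10 chr17:35469839-35470088 (plus strand): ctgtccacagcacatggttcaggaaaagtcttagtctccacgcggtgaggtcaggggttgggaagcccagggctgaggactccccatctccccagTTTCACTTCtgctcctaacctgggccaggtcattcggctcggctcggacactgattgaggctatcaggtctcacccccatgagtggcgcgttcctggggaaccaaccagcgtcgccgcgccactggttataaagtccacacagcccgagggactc
H2-Aa chr17:34287824-34288073 (minus strand): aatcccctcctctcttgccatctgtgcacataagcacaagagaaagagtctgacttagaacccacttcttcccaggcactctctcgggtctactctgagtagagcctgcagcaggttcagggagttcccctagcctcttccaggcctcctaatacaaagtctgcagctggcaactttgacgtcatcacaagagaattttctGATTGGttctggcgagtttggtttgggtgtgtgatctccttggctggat
H2-Oa chr17:34092129-34092378 (plus strand): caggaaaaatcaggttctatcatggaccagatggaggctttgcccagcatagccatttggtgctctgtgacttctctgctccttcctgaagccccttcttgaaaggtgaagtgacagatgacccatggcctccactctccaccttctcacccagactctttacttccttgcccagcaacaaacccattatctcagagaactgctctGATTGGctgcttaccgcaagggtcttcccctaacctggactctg
Of the 39 member genes, 28 had a promoter in the table. TTTCACTTC was found upstream of 5 of 18 class I genes (H2-D1, H2-K1, H2-M3, H2-Q10 and H2-Q7) and of 0 of 8 class II genes, where a gene counts if any of its listed starts has the motif. It was present in 0.402% of all 32851 promoters. GATTGG was found upstream of 14 of 18 class I and 8 of 8 class II genes, against 14.6% of all promoters. Whether a factor binds these letters was not measured.

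Values are log2 ratios of the Cy5 signal of 1 mouse to the Cy3 signal of a pool of all samples, so that 0 is the pool and 1 unit is a doubling. The mouse was in Cy5 on all arrays and no dyes were swapped. Pairs of arrays correlated between -0.525 and 0.939 over the probes kept, with 75 of 1081 pairs below -0.3, while the direction of the ratio is given by the dyes stated in the methods. On each array 54.78 to 70.04% of the spots had a Cy5 signal of at least 2 times the local background. The Bcmo1 probe had a mean Cy5 signal of only 1.63 times the background and was well above it on 15 arrays, so it does not check the genotype labels. Its difference between null and WT mice was 0.07 ± 0.06 (SE) in females and -0.03 ± 0.05 in males. The p-values below measure the spread between these mice, and the number of arrays limits the precision.

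Of the member probes, 47 from 27 genes passed the filter on dim signals in females and 46 from 27 genes in males. The probe of H2-Ea, the α chain of the E molecule, was dim, with a mean Cy5 signal of 64.2 and 1.16 times the background. Its log2 ratio lay between -0.34 and 0.28 over all mice and was not tested. In the b haplotype of C57BL/6 mice this gene is known not to be transcribed because of a promoter deletion. Also dim were both probes of H2-Eb2, 1 of 3 probes of H2-Bl, 1 of 2 probes of H2-T24, and the probes of H2-M1, H2-M9, H2-M11, H2-T3 and H2-M10.1 to H2-M10.6. One H2-Q1 probe was kept in females only. Of the 62 probes 12 list several RefSeq transcripts, 3 of them class II probes, and some list several transcripts of a single gene. Kept probes of H2-D1, H2-Q1, H2-Q10 and H2-T10 list transcripts of other class I genes. Near-identical class I genes share sequence, so which class I gene a probe measured is uncertain.

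In females, class I genes were higher in the Bcmo1-null mice, and no class II probe passed the test. Of the 47 probes, 22 from 12 genes rose in null females (limma, Benjamini-Hochberg adjusted p under 0.05), and none fell. Over all 20743 probes, 6.42% passed and 3.55% were higher. The 22 were 6 of 6 classical class I and 16 of 20 non-classical probes. None of the 16 class II probes, 3 B2m probes and 2 region probes passed, where 24 member probes in all had an unadjusted p under 0.05. The median log2 difference was 0.54 for classical class I, 0.49 for non-classical class I, 0.20 for class II, 0.18 for B2m and 0.07 for the region genes, against -0.0048 over all probes. Without normalization within arrays 4 member probes passed instead of 22, and with the slide in the fit 8 passed, of which 4 were classical, while 3.67% of all probes did.

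H2-K1 encodes the K heavy chain of classical class I. Its brightest probe ranged from -0.89 to 0.18 (median -0.35) in the 12 WT females and from -0.24 to 0.38 (median 0.05) in the 12 null females. The groups overlapped, with 4 null females above the highest WT female and 8 WT females below the lowest null female. The difference was 0.43 ± 0.09 (SE), or 1.34-fold (limma, adjusted p = 3.34e-03). On the control diet alone, the 6 WT females lay between -0.54 and -0.30 and the 6 null females between -0.08 and 0.38, without overlap. The other 3 probes of H2-K1 gave 0.39 to 0.58 and all passed. With the slide in the fit 2 of these 3 did not (adjusted p = 0.0922 and 0.108), and without normalization within arrays none of the 4 probes did (adjusted p = 0.1025 for the brightest).

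H2-D1 encodes the D heavy chain. Its brightest probe, which also lists a transcript of H2-Q2, ranged from -1.39 to 0.06 (median -0.38) in WT and from -0.38 to 0.37 (median 0.11) in null females. Of the null females, 7 lay above every WT female, and the rest overlapped with them. The difference was 0.56 ± 0.12 (adjusted p = 5.98e-03), and the other probe gave 0.58.

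Among the non-classical genes, H2-Q8 differed most. Its probe ranged from -1.66 to -0.05 (median -0.83) in WT females and from -0.22 to 0.61 (median 0.06) in null females. All but 1 WT female lay below the lowest null female. The difference was 0.91 ± 0.14, or 1.88-fold (adjusted p = 1.18e-04), and with the slide in the fit it was 0.94 (adjusted p = 3.11e-03).

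H2-Q10, whose product is mainly known as a protein secreted by the liver, has 4 probes, and all 4 rose in null females, by 0.51 to 0.69. Its brightest probe, which also lists transcripts of H2-D1, H2-Q1 and H2-Q6, ranged from -1.25 to 0.23 (median -0.29) in WT and from -0.33 to 0.55 (median 0.24) in null females. On another, 11 of 12 null females lay above every WT female. The 2 probes with the highest coordinates (mm8, chr17:35081576-35081635 and chr17:35082473-35082532) are called the distal H2-Q10 probes below, and their groups overlapped more, with 1 and 0 null females above all WT females. H2-Bl rose by 0.35 and 0.66 on its 2 probes. H2-Q7 rose by 0.52, H2-Q2 by 0.50 and H2-T23, which encodes the Qa-1 molecule recognised by NK cell receptors, by 0.48. Their groups overlapped. With the slide in the fit, 4 of the 16 non-classical probes still passed, those of H2-Q8, 1 of 2 H2-T22 probes, the H2-Bl probe with the larger difference and 1 of 4 H2-Q10 probes. H2-Q7, H2-Q2, H2-T23 and the brightest H2-Q10 probe were among those that did not, with differences of 0.39 to 0.44 and adjusted p from 0.0945 to 0.16, as were both distal H2-Q10 probes (adjusted p = 0.139 and 0.19) and both raised H2-Q1 probes. Of the 3 H2-Q1 probes, 2 rose, by 0.49 and 0.52, and the third had a difference of -0.25 (adjusted p = 0.317). H2-Q9 gave 0.42 (adjusted p = 0.224).

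The class II genes varied widely among females of both genotypes. H2-Ab1, the β chain of the A molecule, ranged from -1.96 to 0.64 (median 0.09) in WT and from -0.64 to 0.74 (median 0.18) in null females. The null range lay almost wholly inside the WT range. The difference of 0.33 ± 0.23 did not pass (adjusted p = 0.437), and its 4 probes gave 0.33 to 0.52. H2-Aa, the α chain, gave 0.35 and 0.36, H2-Eb1, the β chain of the E molecule, 0.36, and Cd74 0.21. Ciita gave -0.04 ± 0.24 (95% interval -0.54 to 0.47), and H2-Oa, the α chain of a modulator of peptide loading found in B cells, -0.10 ± 0.41.

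When the diets were taken apart, 19 member probes passed between null and WT females on the control diet, where 1.83% of all probes did, and 3 on the BC diet, where 5.49% did. The median over the classical class I probes was 0.80 on the control diet and 0.25 on the BC diet. The difference between these contrasts is the interaction of genotype and diet, in which no member probe and 0% of all probes passed. An unadjusted p under 0.05 was found for 11 member probes and for 2003 of all 20743 probes. The median of the interaction over the classical probes was -0.49. The probes that passed on the BC diet were H2-Q8, with 1.00, and the distal H2-Q10 probes, with 0.90 and 0.78.

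**Figure D1:**
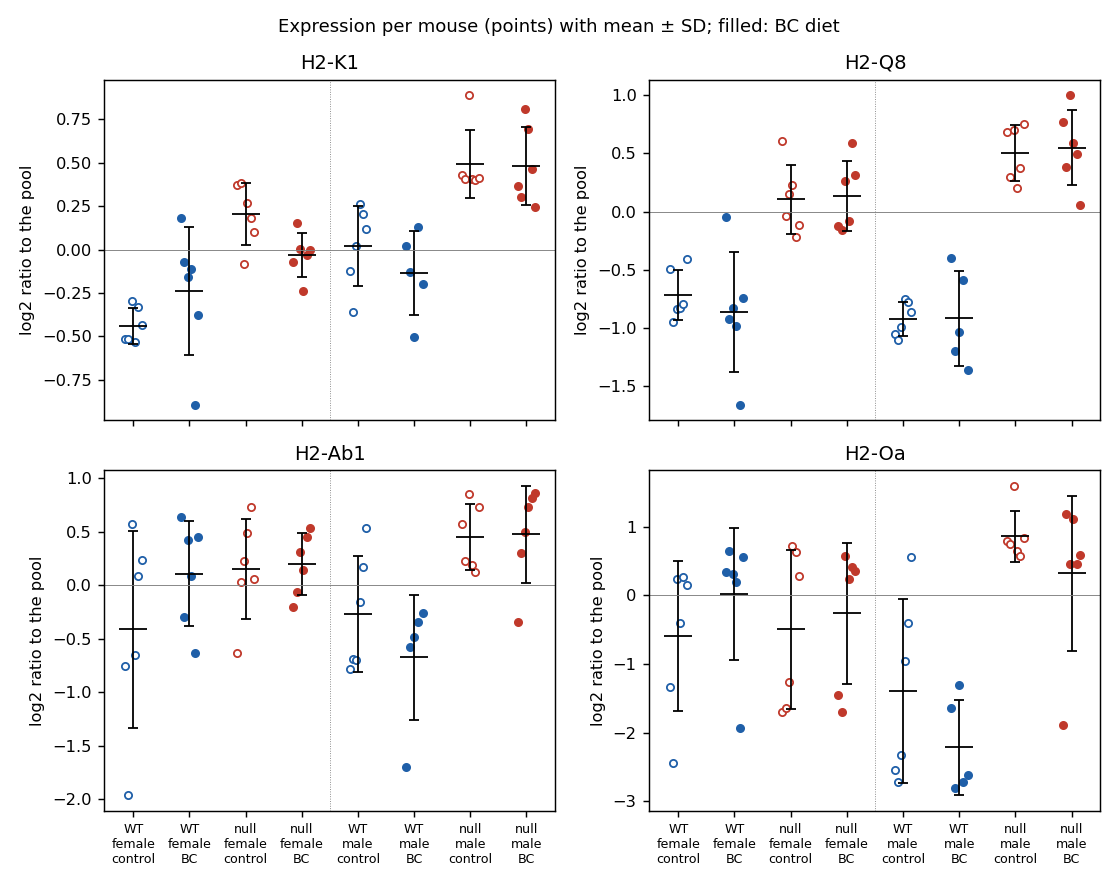
Log2 ratio to the pool for each mouse (points) with mean ± SD per group, for the brightest probes of H2-K1, H2-Q8, H2-Ab1 and H2-Oa, in WT (blue) and Bcmo1-null mice (red), on control (open) and BC diet (filled). H2-Q8 of all 12 null males lies above all 11 WT males, whereas H2-Oa has medians of -2.33 in WT and 0.70 in null males and of 0.21 and 0.26 in females.

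In males, both classes were higher in null mice. Of the 46 probes, 43 passed, 42 higher and 1 lower in null males, and they came from 25 genes. Here 46.7% of all 20370 probes passed, 25.3% higher and 21.4% lower, so that a call by itself says less than in females. Of all the probes called, 54.2% were higher, and 71.2% after median centring in place of loess. In females these shares were 55.3% and 51.8%. Without normalization within arrays the share was 53.1% in males and 27.5% in females. The 42 higher probes were 16 of 16 class II, 6 of 6 classical, 19 of 19 non-classical and 1 of 3 B2m probes. The region genes H2-Ke2 and H2-Ke6 did not pass, with 0.09 and 0.08. Median log2 differences were 1.03 for class II, 0.70 for classical and 0.78 for non-classical class I, against 0.0052 over all probes. In 6 of the 46 probes the 2 genotypes did not overlap at all, one each of H2-K1, H2-Bl, H2-M3, H2-Q8, H2-T22 and B2m. The share of all probes without overlap was not counted, so this is not a trait shown to be particular to the members. The H2-Bl probe among them was well above background on only 6 of 11 WT male arrays.

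Among the class II genes of males, H2-Oa differed most. It ranged from -2.82 to 0.56 (median -2.33) in the 11 WT males and from -1.89 to 1.60 (median 0.70) in the 12 null males. Of the null males, 9 lay above the highest WT male and 3 within the WT range. The difference was 2.40 ± 0.38, or 5.28-fold (adjusted p = 3.36e-05), and the second probe gave 2.42. H2-Ob, its partner chain, passed with 1.03, but its probe was well above background on only 4 of 11 WT male arrays against 11 of 12 null male arrays, so the size of this difference is uncertain.

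Ciita ranged from -1.44 to 0.32 (median -1.08) in WT males and from -0.65 to 1.56 (median 0.64) in null males, with 9 null males above all WT males. Its difference was 1.52 ± 0.21, or 2.87-fold (adjusted p = 9.12e-06). Cd74 ranged from -2.28 to 0.32 (median -0.73) in WT and from -0.68 to 0.99 (median 0.41) in null males. The groups overlapped less than in females, and the difference was 1.09 ± 0.21 (adjusted p = 2.59e-04).

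The peptide-presenting chains moved by similar amounts. H2-Aa ranged from -1.55 to -0.15 (median -0.87) in WT males and from -0.69 to 0.77 (median 0.28) in null males. Of the null males, 11 lay above every WT male, and the difference was 1.09 ± 0.16 (adjusted p = 1.52e-05). H2-Ab1 ranged from -1.70 to 0.53 (median -0.48) in WT and from -0.34 to 0.86 (median 0.53) in null males, and rose by 0.87 to 0.99 on its 4 probes. H2-Eb1 ranged from -1.56 to 0.16 (median -0.81) in WT and from -0.46 to 0.78 (median 0.27) in null males, with 8 null males above all WT males, and rose by 1.02. The chaperones of peptide loading rose as well, H2-DMa by 0.90, H2-DMb1 by 0.82 and H2-DMb2 by 0.95 on the brighter of its 2 probes. The other H2-DMb2 probe gave 1.30 but was well above background on only 5 of 11 WT male arrays.

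H2-Q8 separated the genotypes in males, which it did not in females. It ranged from -1.36 to -0.40 (median -0.99) in WT males and from 0.05 to 1.00 (median 0.54) in null males, and no null male overlapped with a WT male. The difference was 1.45 ± 0.12, or 2.72-fold (adjusted p = 6.51e-09). H2-Q9 ranged from -1.65 to -0.11 (median -1.18) in WT and from -0.16 to 0.93 (median 0.46) in null males, and rose by 1.51 ± 0.15 (adjusted p = 1.48e-07), with 10 null males above all WT males. The position given for the H2-Q9 probe (mm8, chr17:35081885-35081944) lies between those of 2 H2-Q10 probes, so the gene it measured is uncertain.

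H2-K1 ranged from -0.50 to 0.26 (median 0.02) in WT males and from 0.25 to 0.89 (median 0.41) in null males. Of the null males, 11 lay above every WT male. The difference was 0.54 ± 0.09 (adjusted p = 5.51e-05), and its other probes gave 0.56 to 0.94. H2-D1 rose by 0.66 and 0.75, H2-Q10 by 0.79 to 1.07, H2-T23 by 0.90, H2-Q7 by 0.82, H2-Q2 by 0.74, H2-Bl by 0.56 and 0.78, and H2-Q1 by 0.70 on both probes kept.

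**Figure D2:**
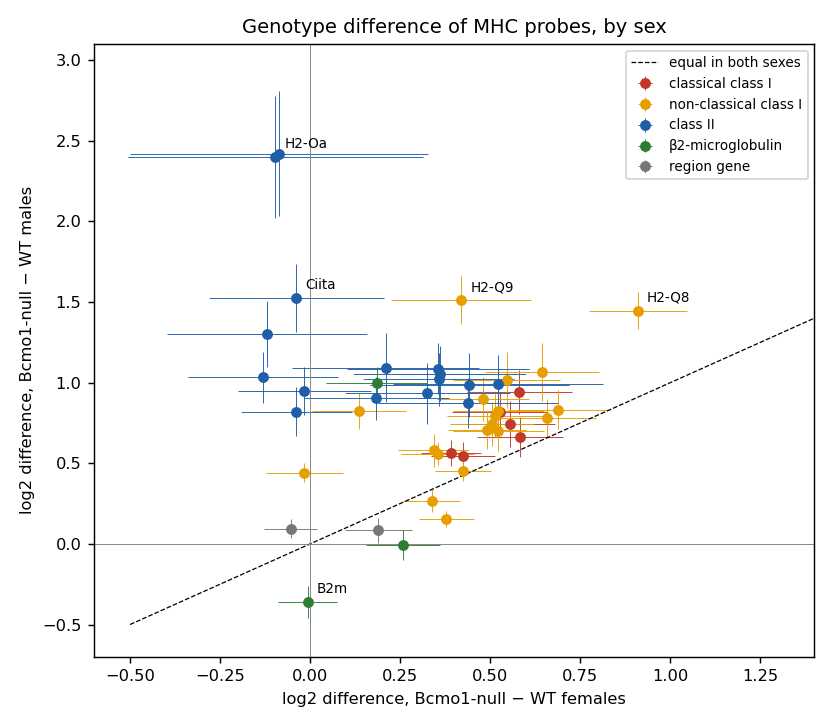
Genotype difference (Bcmo1-null minus WT, log2) of each member probe kept in both sexes, females on the horizontal and males on the vertical axis, with bars of ± 1 SE and colours for the class. The class II probes lie above the line of equal difference, up to 2.42 in males for H2-Oa, and the classical class I medians are 0.54 in females and 0.70 in males.

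Whether the genotype difference itself depended on sex was tested as an interaction over all 47 arrays. Of the 47 member probes, 16 passed, 15 of them with a larger difference in males, where 32.9% of all probes passed and 18.0% in that direction. These were 9 of 16 class II probes, 5 of 20 non-classical probes and 2 of 3 B2m probes, and 0 of 6 classical probes, none of which had an unadjusted p under 0.05. The largest interactions were those of H2-Oa, with 2.50 ± 0.58 (adjusted p = 1.33e-03), and Ciita, with 1.56 ± 0.33 (adjusted p = 7.01e-04). The H2-DMb2 probes gave 1.42 and 0.97, H2-Ob 1.16, H2-Q9 1.09, Cd74 0.88 and H2-Q8 0.54, where H2-Ob and the first of the H2-DMb2 probes were near background in most WT males, as was 1 H2-Q1 probe that also passed. For H2-K1 the interaction was 0.12 ± 0.13 (95% interval -0.14 to 0.38), and for H2-Ab1 it was 0.61 ± 0.31 (95% interval -0.01 to 1.22).

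The arrays lay on 12 slides, of which 5 in each sex held both genotypes. Within these slides H2-K1 was higher in null mice on 5 of 5 slides in females, by 0.23 to 0.57, and on 5 of 5 in males, by 0.26 to 0.67. H2-Q8 was higher on 5 of 5 slides in both sexes, by 0.51 to 1.43 in females and 1.09 to 1.90 in males. H2-Ab1 was higher on 3 of 5 slides in females, from -0.36 to 0.54, and on 5 of 5 in males, from 0.33 to 1.46. With the slide in the fit, 42 member probes still passed in males, where 38% of all probes did.

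B2m, whose product pairs with all class I chains, did not move as one gene. The brightest probe ranged from -0.24 to 0.42 (median 0.22) in WT males and from -0.26 to 0.56 (median 0.08) in null males, and the groups overlapped almost completely. Its difference was -0.0069 ± 0.095 in males (95% interval -0.20 to 0.19, with a sign that turned with the scaling) and 0.26 ± 0.10 in females (adjusted p = 0.153). A second bright probe fell by 0.36 ± 0.10 in null males (adjusted p = 4.97e-03), but not after median centring, with -0.29 (adjusted p = 0.25). The third and dimmest probe, which lists no RefSeq transcript (mm8, chr2:121840304-121840363), rose by 1.00 ± 0.10 (adjusted p = 2.39e-07), and all 12 null males exceeded all 11 WT males. In females it gave 0.18 (adjusted p = 0.482).

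For most other genes the probes went together. Of the 12 genes with several kept probes, 9 had all probes on the same side of 0 in females and 11 in males, and the median range between the lowest and highest probe of a gene was 0.16 in females and 0.25 in males. H2-Aa and H2-Oa probes differed by at most 0.03. In males B2m had the widest range, 1.36, and in females H2-Q1, 0.77. H2-M3, which presents formylated peptides, rose by 0.82 and 0.44 in males and gave 0.14 and -0.02 in females. Probe sequences and the alleles of these mice were not used here, so the part of sequence differences between strains in these ranges was not tested.

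Markers of lymphocytes moved with genotype in males, where 46.7% of all probes passed and 25.3% were higher. All 7 B cell markers tested and 6 of 7 T cell markers rose in null males, with medians of 2.29 and 2.61, led by Ms4a1 with 4.05, Pou2af1 with 3.28 and Cd79b with 3.27, and among T cell genes by Cd3g with 2.99, Cd3d with 2.84 and Lck with 2.71. Of the macrophage markers 8 of 10 rose, by at most 1.28 (Mpeg1), and of the dendritic cell markers 4 of 4. In females 0 of 7 B cell and 0 of 8 T cell markers passed, 0 and 1 of them at an unadjusted p under 0.05, and 1 of 10 macrophage markers (Fcgr1, 0.82) did. Over all probes 6.42% passed in females. The B cell markers Cd79a and Blk did not pass the filter, which asks for a signal in both channels, and were not tested.

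A lymphocyte score, the median log2 ratio of the B and T cell markers in a mouse, ranged from -2.78 to 0.26 (median -2.03) in WT males and from -1.37 to 1.42 (median 0.52) in null males. In females it ranged from -2.19 to 0.61 (median 0.07) in WT and from -2.41 to 0.71 (median 0.03) in null mice. A macrophage score made in the same way ranged from -0.58 to -0.01 (median -0.34) in WT males and from -0.09 to 0.40 (median 0.15) in null males, and had medians of -0.11 and 0.08 in WT and null females, with ranges of -1.55 to 0.25 and -0.59 to 0.44. Fewer cells of a type and less RNA per cell cannot be told apart in such samples. Adipocyte markers went the other way in males, with 5 of 8 lower in null mice, and 3 of 7 endothelial markers were lower, where 21.4% of all probes were.

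With both scores as covariates, the class II difference of males was no longer seen. Their median went from 1.03 to -0.03, and 0 of 16 passed. H2-Oa went from 2.40 to -0.03, Cd74 from 1.09 to 0.0030 and Ciita from 1.52 to 0.37 (adjusted p = 0.557). The classical class I median went from 0.70 to 0.32 and the non-classical one from 0.78 to 0.37. Of the 46 probes 4 passed, where 1.78% of all probes did: H2-Q8 with 1.26 (adjusted p = 0.0102), H2-Q9 with 0.76 (adjusted p = 0.0166), and the distal H2-Q10 probes, with 1.67 and 1.65. The other 2 H2-Q10 probes gave 0.73 and 0.42 (adjusted p = 0.185 and 0.531), so the probes of this gene came apart in this fit. No interaction of genotype and sex passed in this fit, with 4 member probes at an unadjusted p under 0.05. In males the score and genotype went together, with 8 of 11 WT but only 1 of 12 null males in the lower of 2 clusters of that score, their parts cannot be told apart in these males.

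In females 22 of 47 probes passed with the same covariates, where 7.29% of all probes did. These were not the same probes throughout, as 1 H2-Bl probe no longer passed (0.36, adjusted p = 0.064). The class I medians stayed near their values, 0.48 for classical and 0.46 for non-classical probes, and the class II median went from 0.20 to 0.07. H2-Q8 was 0.98 (adjusted p = 9.26e-05) and H2-Q9 then passed with 0.55 (adjusted p = 7.76e-03).

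**Figure D3:**
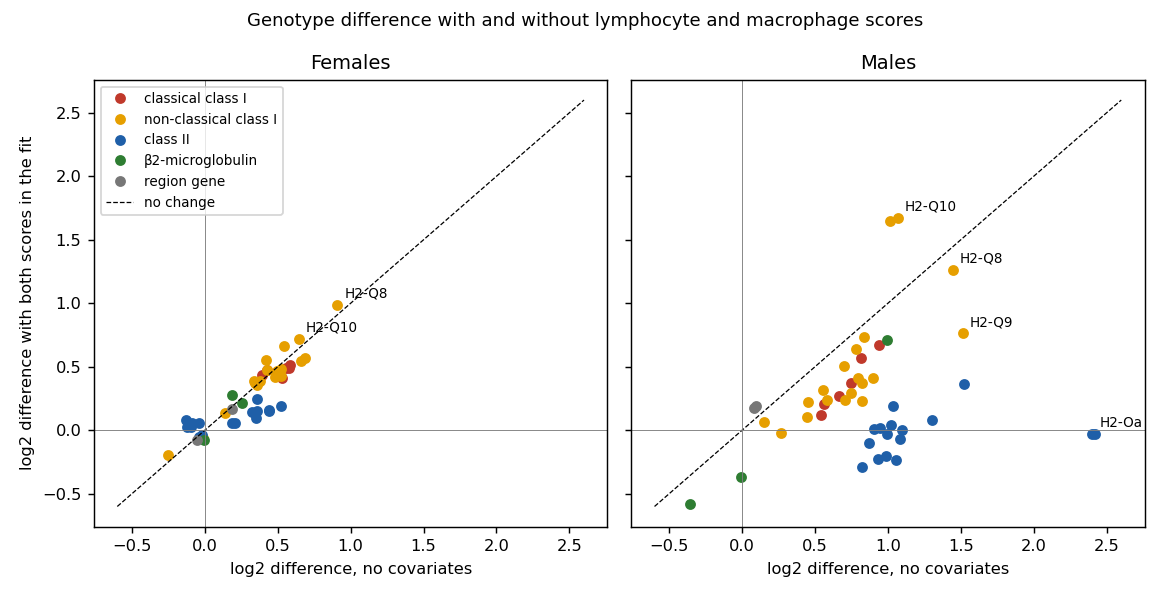
Genotype difference (log2) of each member probe without covariates (horizontal) and with the lymphocyte and macrophage scores in the fit (vertical), in females and males, with the dashed line for no change. In females the classical class I median is 0.54 without and 0.48 with the scores, and in males the class II median goes from 1.03 to -0.03 while H2-Q8 is at 1.26 and the distal H2-Q10 probes at 1.67 and 1.65.

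The levels of H2-Ab1, Cd74, H2-K1 and B2m were set against the scores across mice. The lymphocyte score fell into 2 clusters, so the relation was taken within the upper cluster, of 18 females and 14 males. There Cd74 gave Pearson's r = 0.82 in females (permutation test, adjusted p = 1.06e-03, Spearman's rho = 0.58, adjusted p = 0.0419) and r = 0.85 in males (adjusted p = 5.76e-04, rho = 0.78, adjusted p = 6e-03). Without the 2 mice farthest from the median score r was 0.51 and 0.64, and after centring on each slide 0.93 and 0.83. H2-Ab1 gave r = 0.72 in females (permutation test, adjusted p = 3.96e-03, rho = 0.48, adjusted p = 0.0935) but 0.43 without the 2 farthest mice, on which its size therefore depended. After centring on each slide it was 0.86, and after centring on each group 0.67. In males H2-Ab1 gave r = 0.60 (permutation test, adjusted p = 0.0603, rho = 0.60, adjusted p = 0.0684), and 0.24 without the 2 farthest mice. Centring on each slide gave 0.72 there, and centring on each group 0.52. H2-K1 gave r = 0.25 in females (permutation test, adjusted p = 0.488, rho = 0.53, adjusted p = 0.0684). In males it gave r = 0.56 (adjusted p = 0.0796, rho = 0.56, adjusted p = 0.0921). Without the 2 farthest mice these were 0.73 and 0.27, after centring on each slide 0.46 and 0.75, and after centring on each group 0.10 and 0.25. In the lower clusters, of 6 females and 9 males, Cd74 gave r = -0.14 and -0.39 (exact permutation test, adjusted p = 0.93 and 0.488, rho = 0.43 and -0.02), and H2-Ab1 gave r = -0.09 and -0.37 (exact permutation test, adjusted p = 0.93 and 0.502, rho = 0.43 and -0.02). B2m gave r = 0.49 and -0.63 in these lower clusters (exact permutation test, adjusted p = 0.488 and 0.148, rho = 0.71 and -0.43). H2-K1 gave r = 0.07 and 0.19 there (adjusted p = 0.93 and 0.789). In the upper clusters B2m gave r = -0.01 and -0.08 (permutation test, adjusted p = 0.961 and 0.93).

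With the macrophage score over all mice of a sex, H2-Ab1 gave r = 0.82 in females (permutation test, adjusted p = 1.8e-04, rho = 0.70, adjusted p = 1.08e-03) and r = 0.84 in males (adjusted p = 8e-05, rho = 0.84, adjusted p = 1.6e-04). Without the 2 farthest mice r was 0.73 and 0.80, after centring on each slide 0.73 and 0.82, and after centring on each group 0.80 and 0.64. H2-K1 gave r = 0.30 in females (permutation test, adjusted p = 0.281, rho = 0.34, adjusted p = 0.188) and r = 0.84 in males (adjusted p = 8e-05, rho = 0.87, adjusted p = 1.2e-04), where it was 0.84 without the 2 farthest mice, 0.85 after centring on slides and 0.51 after centring on groups. Cd74 gave r = 0.76 in females (permutation test, adjusted p = 8.4e-04, rho = 0.68) and r = 0.80 in males (adjusted p = 8e-05, rho = 0.82). B2m gave r = 0.43 in females (permutation test, adjusted p = 0.0796, rho = 0.41) and r = 0.24 in males (adjusted p = 0.449, rho = 0.20). In all, 24 relations of H2-Ab1, Cd74, H2-K1 and B2m with the 2 scores were computed, with p-values adjusted over them. The smallest p that the 100000 permutations can give is 1e-05.

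**Figure D4:**
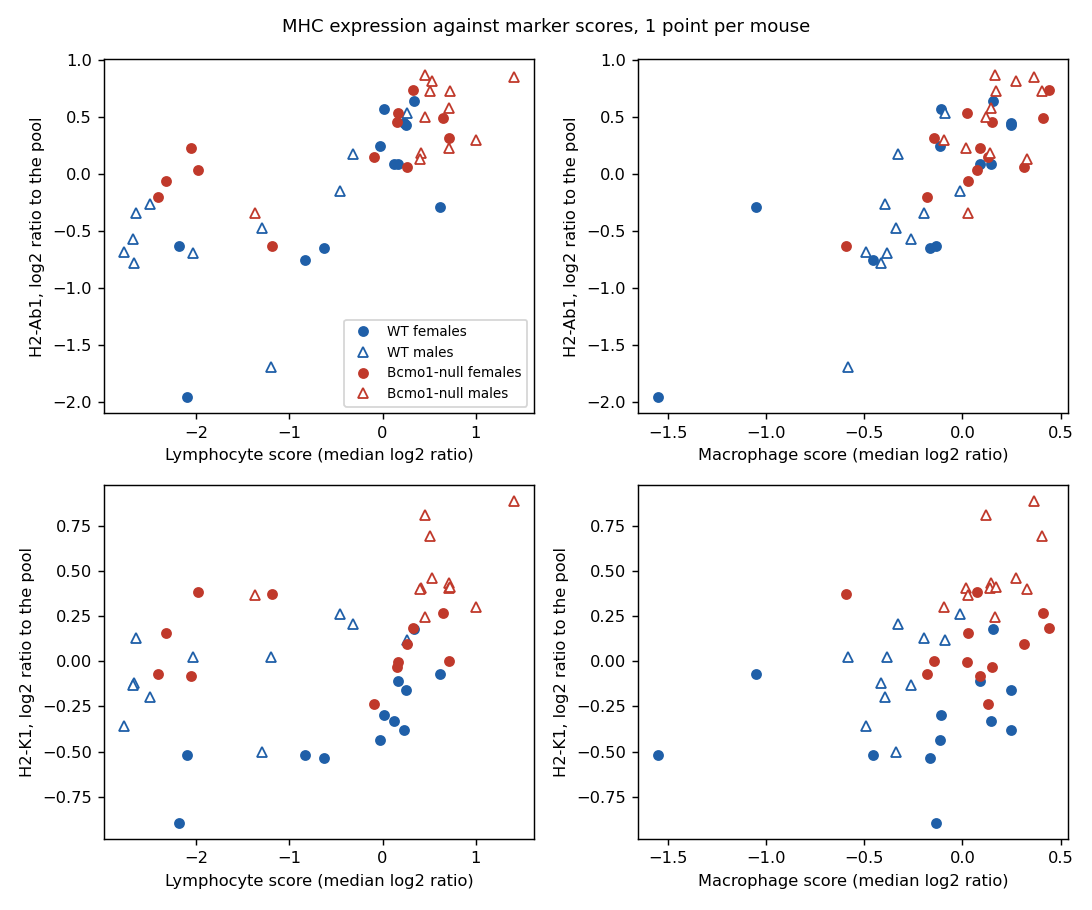
H2-Ab1 (upper) and H2-K1 (lower), log2 ratio to the pool, against the lymphocyte (left) and macrophage score (right) of each mouse, with circles for females, triangles for males, blue for WT and red for Bcmo1-null mice. The lymphocyte score leaves a gap between 2 clusters of mice, and against the macrophage score H2-K1 has r = 0.84 in males and 0.30 in females.

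Of 13 genes tested that serve the class I pathway, which trim, carry and load peptides, 1 rose in females (Erap1, a peptide trimming enzyme, 0.27), with a median of 0.21 and 8 at an unadjusted p under 0.05, where 6.42% of all probes passed. In males, where 46.7% of all probes passed, 12 of 13 rose, with a median of 0.37, led by the immunoproteasome subunits Psmb8 with 1.06 and Psmb9 with 1.01 and the peptide transporter Tap1 with 0.65. Of the 11 class II partners tested, which process antigen or bind class II promoters, none passed in females and 1 had an unadjusted p under 0.05. In males 6 rose and 1 fell, against the same share of all probes, led by the protease Ctss with 1.56 and the thiol reductase Ifi30 with 1.46, while the protease Ctsl fell by 0.54.

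Interferon response genes rose in null mice of both sexes. In females 14 of 24 tested passed, all higher, with a median of 0.62, against 6.42% of all probes. Rtp4 gave 1.20, Lgals3bp 1.09 and Ifit1, an antiviral RNA-binding protein, 1.04. In males 23 of 24 rose, with a median of 0.75, where 46.7% of all probes passed and 25.3% were higher. These were led by the interferon-inducible GTPases Ifi47 with 1.68 and Iigp1 with 1.35, and by Zbp1 with 1.30. A score of these genes had medians of -0.33 in WT and 0.24 in null females, and of -0.68 and 0.04 in males. In males it ranged from -0.94 to -0.51 in WT and from -0.29 to 0.46 in null mice, without overlap. In females on the control diet it ranged from -0.82 to -0.21 and from 0.05 to 0.92, and on the BC diet the genotypes overlapped. As this score went with genotype, the fit below cannot tell their parts apart. When this score was added to the 2 cell scores, a choice made after the data were seen, 0 of 47 member probes passed in females, where 0.665% of all probes did, with 16 at an unadjusted p under 0.05 and medians of 0.40 and 0.39 for classical and non-classical class I. In males 2 passed, where 1.38% of all probes did, the distal H2-Q10 probes with 2.05 and 2.00.

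The other genes of the H2 interval were read beside the members. Between the outermost H2 probes (mm8, chr17:33550087-36882517) the array holds 211 other probes. In females 15 of 129 tested passed, or 11.6%, with 9 higher and 6 lower and a median of 0.02. The largest were Cdsn, a skin adhesion protein, with -1.10, and 4 probes with provisional names, of which EG630499, TC1595183 and LOC672716 are described as class I-like. These were EG630499 with 0.62, TC1595183 with 0.60, LOC672716 with 0.58 and NAP027924-1 with 0.54. All 9 higher probes have provisional names, and the 6 lower ones are probes of Cdsn, Hspa1a and Vars2. In males 56 of 127 passed, or 44.1%, with 41 higher and 15 lower and a median of 0.08. These were led by Ltb with 2.80 and Lta with 1.70, the lymphotoxin genes of lymphocytes, by Cdsn with -2.10 (adjusted p = 1.9e-10), and by D17H6S56E-5 with 1.37 and BI555125 with 1.36.

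**Figure D5:**
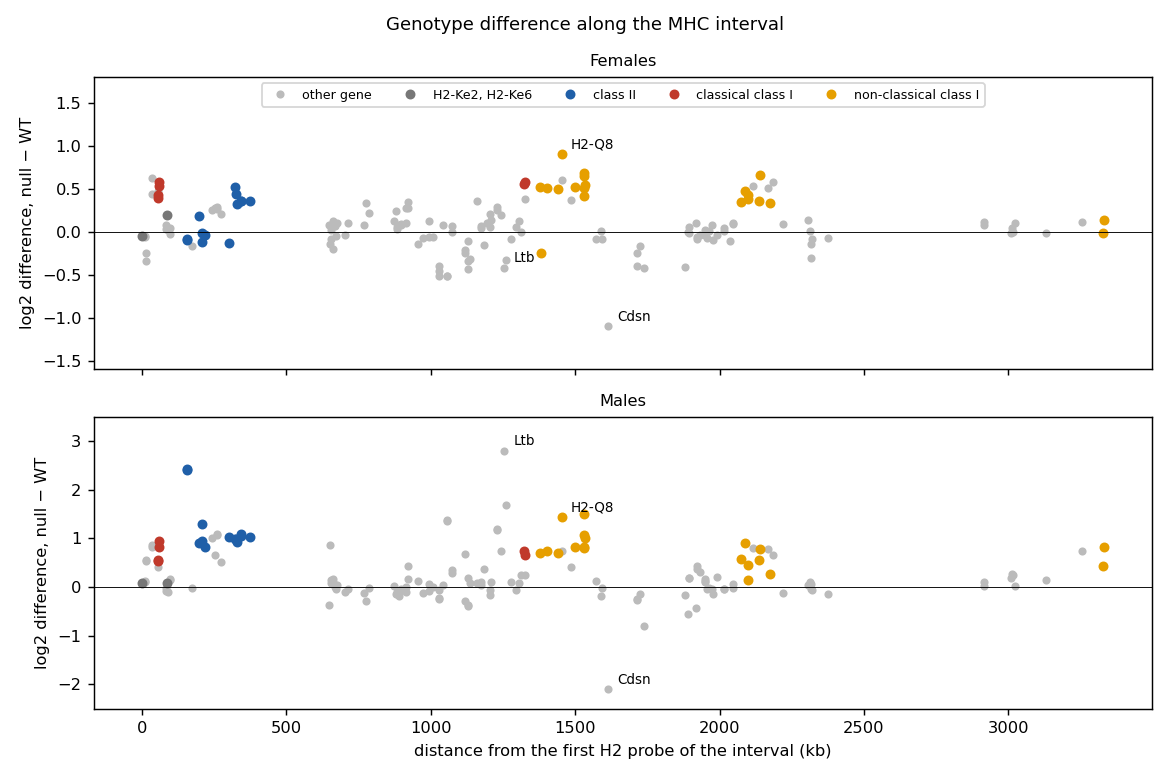
Genotype difference (Bcmo1-null minus WT, log2) of all kept probes between the outermost H2 probes, against the distance from the first H2 probe in kb, in females (upper) and males (lower, with another scale), with members coloured by class and other genes grey. In females 22 members and 9 other probes are called higher, the 9 all with provisional names and several described as class I-like. The other probes have a median of 0.02 in females, and in males class II, Ltb and Lta rise as well.

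BC changed no member past the threshold in any group. In WT females, 0 of 47 probes passed between the BC and control diets, where 1.13% of all probes did. An unadjusted p under 0.05 was found for 10 of the 47, and for 4789 of all 20743 probes, a similar share. The median was 0.49 for class II and 0.38 for classical class I. Without 1 mouse, WT female control replicate 3, 5 of 47 member probes passed, where 7.93% of all probes did. The distal H2-Q10 probes went the other way, with -0.54 ± 0.22 (adjusted p = 0.158) and -0.59 ± 0.21 (adjusted p = 0.111). In null females 0 of 47 passed (0% of all probes), and the median of the classical probes was -0.12. There 4 member probes and 511 of all 20743 probes had an unadjusted p under 0.05.

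In males the diet gave 0 of 46 in WT and 0 of 46 in null mice, where 0% of all probes passed, and no member probe had an unadjusted p under 0.05. The interaction of genotype and diet also gave 0 of 46 (0% of all probes), with none at an unadjusted p under 0.05. For H2-K1 the diet effect in WT males was -0.16 (95% interval -0.43 to 0.12), and for H2-Ab1 it was -0.40 (95% interval -0.97 to 0.16).

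Between the sexes, 13 of 47 member probes passed, 8 higher and 5 lower in males, where 51.8% of all probes passed, 25.7% higher and 26.1% lower. None of the 16 class II probes passed, nor had any an unadjusted p under 0.05. H2-T10 and H2-T22, non-classical genes whose products bind γδ T cells, were higher in males by 0.47, 0.35 and 0.44. H2-K1 was higher on 2 of 4 probes, by 0.34 and 0.30, and B2m on 2 of 3, by 0.31 and 0.21. The distal H2-Q10 probes were lower in males by -0.47 and -0.45, and 1 H2-Bl probe by -0.30. Of the region genes, H2-Ke6 was higher by 0.20 and H2-Ke2 lower by -0.13. With the slide in the fit 8 member probes passed.

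One of the 5 lower probes was an H2-Q1 probe with no RefSeq transcript, which did not pass the filter in males alone. It was well above background on 23 of 24 female but only 11 of 23 male arrays and on 0 of 5 of the WT males on the BC diet, so no size is given for its difference. Its log2 ratio ranged from -0.09 to 1.37 in females and from -2.56 to -0.41 in males, without overlap. The other 2 H2-Q1 probes gave 0.05 and 0.14. The markers of mammary epithelium, which lies within inguinal fat of females, were lower in males for 8 of 8 genes, with a median of -4.68, and their part in this was not tested.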

How the data were processed

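RNA of iWAT from 47 mice was hybridized to 2-colour arrays, each mouse in Cy5 and a pool of all samples in Cy3. Deposited values were the authors' scanner intensities per spot and log10 ratios, of which the series table is a copy with column medians of 0. They were converted here to log2 ratios. Spots marked as outliers (10902) and control features were set aside. Median signals of the spots were background-corrected (normexp, offset 50), each array was normalized by loess, and spots of a probe were averaged. The filter on dim signals kept those probes whose mean signal over the arrays of a fit reached 2 times the background in both Cy5 and Cy3. Groups were compared with limma 3.58.1 in R 4.3.3, within females (24 arrays), within males (23 arrays) or over all arrays, with Benjamini-Hochberg adjustment over all probes and a threshold of 0.05. The fit was tested on simulated data. Median log2 ratios of marker genes gave the scores.

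Values by group are given for H2-K1, H2-D1, B2m, the class II chains, Cd74, Ciita and the members that differed most by genotype, and of other lists at most the 3 largest called differences (5 in the H2 interval). The members and lists were chosen with earlier results of these data known. Alternatives covered background correction, normalization, filters, slide, replicate number, scores, single mice and the methods' t-test. Arrays sharing a replicate number lay partly on the same slide, but as not every such pair correlated above 0.1, the number was not used to pair mice. Promoters came from RefSeq (GRCm38.p6), while probe positions are those of the files (mm8).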

Additional observations from a re-analysis of the deposited data

Results flagged for a closer look

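In 15 of 144 groups of a member and 1 of the 8 groups, 1 mouse lay far from the others. Chance gives about 1 in 20 for a single such test. The same mice recur over related genes, so the 144 are not separate tests and their count cannot be set against that rate. Null male on BC replicate 1 was lowest for H2-Aa (-0.69), Cd74 (-0.68), Ciita (-0.65), H2-Oa (-1.89) and H2-Q9 (-0.16). Its lymphocyte score of -1.37 was the lowest of the null males. WT male on BC replicate 1 was lowest for H2-Aa (-1.55), H2-Ab1 (-1.70) and Cd74 (-2.28). Its array had the lowest share of spots at 2 times the background, 54.78%. Null male on control diet replicate 3 was highest for H2-K1 (0.89) and H2-Oa (1.60). WT female on BC replicate 5 was lowest for H2-Oa (-1.93) and H2-Q9 (-1.52), and its lymphocyte score of -2.19 was the lowest of the WT females. Null male on BC replicate 2 was lowest for H2-D1 (-0.14) and H2-Bl (-0.034), and null female on control diet replicate 1 for H2-T23 (-0.18).

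The genotype difference was larger in males than in females, by the interaction of genotype and sex in limma, for Cd74 (0.88), Ciita (1.56), H2-Q8 (0.54), H2-Oa (2.50), H2-Q9 (1.09) and H2-Ob (1.16). The adjusted p lay between 7.01e-04 for Ciita and 0.0454 for Cd74.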

How the results depend on the processing

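In females 22 member probes passed, against 4 without normalization within arrays (21 at an unadjusted p under 0.05), 8 with the slide in the fit (22), and 0 with the lymphocyte, macrophage and interferon scores (16). In males 43 passed, against 4 with 2 scores and 2 with 3. The sex difference had 13 and, with the slide, 8. The interaction of genotype and sex had 16 and, with 2 scores, 0 (4 at an unadjusted p under 0.05). The diet effect in WT females had 0, and 1 after median centring or with all 47 arrays in the fit. Leaving out 1 mouse gave 19 to 22 in females, 43 in males, 13 to 14 for sex, 14 to 21 for the interaction and 0 to 5 for diet in WT females, with 5 only without WT female control replicate 3 (18 at an unadjusted p under 0.05), and 0 in the other comparisons of diet. In males, differences of H2-Aa (-0.068), H2-Ab1 (-0.23) and H2-Oa (-0.032) turned with 2 scores, and those of H2-K1 (-0.17), H2-Ab1 (-0.0016) and H2-Eb1 (-0.00068) with 3. Averaged per gene, B2m in males gave 0.21 (adjusted p = 0.041), and after median centring its r with the lymphocyte score in the upper cluster of males was 0.65. The causes were not tested.

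With the replicate number as a block, 21 member probes passed in females, 43 in males, 14 for sex and 18 for the interaction of genotype and sex, and none for diet. Without the block, 6.42% of all probes passed in females, 46.7% in males, 51.8% for sex and 32.9% for this interaction. Arrays that shared a number had a median correlation of 0.14 in females and 0.0119 in males, and 10 of 24 and 3 of 23 arrays correlated best with their own number. The methods' t-test gave 24 member probes in females at p under 0.05, where 19.2% of all probes passed, 22 at p under 0.01 (9.07%) and 19 after Benjamini-Hochberg, and 43 in males each time (53.5% and 40.1% of all probes). For diet in WT males the median of all probes was 0.12 after median centring and -0.25 without normalization. Signal over background limits the 15 dim member probes, which have no test in either sex.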
